A study of Mus musculus with 6 samples.

Results

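The genes described here encode the phagocyte NADPH oxidase and the enzymes that remove its products. They are 9 genes of the 18193 measured: Cybb, Cyba, Ncf1, Ncf4 and Rac2 for the oxidase, and Sod1, Sod2, Cat and Gpx1 for the antioxidant enzymes. The genes were chosen by name, with earlier results of these data known. All Affymetrix probe sets that the platform annotation gives to 1 of these symbols and to no other gene were taken, which gave 22 of 45037 probe sets, and no probe set or gene was removed by a filter. Bone marrow cells from mice transplanted with an ASXL1 mutant (ASXL1-MT; 3 arrays), described as having a disease like myelodysplastic syndrome, were compared with cells from mock-transplanted mice called normal controls (3 arrays). Both groups carry the title prefix BMT and the cell type "myeloid BM cells". Depletion of CD3e, B220 and TER-119 positive cells (T cells, B cells and red cell precursors) is described for both groups in the design text, and it stands in the sample labels of the mock group alone. Mouse strain, age, time after transplant, the mutant sequence, its vector and promoter, and what mock mice received are not given in the sources used here. Nor do these say whether the arrays of a group came from separate mice, so p-values measure the spread between these arrays, which may be technical.

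The phagocyte NADPH oxidase passes electrons from NADPH across the membrane to oxygen and makes superoxide, the starting point of the respiratory burst with which neutrophils and macrophages kill microbes. Its catalytic core is a membrane heterodimer, flavocytochrome b558, formed by CYBB (gp91phox) and CYBA (p22phox). On activation, cytosolic subunits, among them p47phox (Ncf1) and p40phox (Ncf4), and the GTPase RAC2 move to this core. Superoxide dismutases turn superoxide into hydrogen peroxide, in the cytosol (Sod1) and in mitochondria (Sod2), and catalase (Cat) and glutathione peroxidase 1 (Gpx1) then break the peroxide down.

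Promoter sequences are shown for 4 genes of this set that changed: 3 oxidase subunits, which moved together, and catalase, which moved the other way. They are the 250 bases before the start given by RefSeq (build GRCm38.p6), on the gene's own strand, 5′ to 3′. Capitals mark matches, on either strand, to GAGGAA (the core of sites for PU.1, a myeloid transcription factor), TGACNNNGC (the core of the antioxidant response element, bound by NRF2) and GGGCGG (the GC box). All 4 genes lie on the minus strand, with Cybb at chrX:9469325-9469574, Cyba at chr8:122432941-122433190, Ncf1 at chr5:134229626-134229875 and Cat at chr2:103485154-103485403.
Cybb: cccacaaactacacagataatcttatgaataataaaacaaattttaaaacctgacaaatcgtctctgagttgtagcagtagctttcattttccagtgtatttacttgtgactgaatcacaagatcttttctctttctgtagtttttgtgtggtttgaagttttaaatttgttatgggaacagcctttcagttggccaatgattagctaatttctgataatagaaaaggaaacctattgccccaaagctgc
Cyba: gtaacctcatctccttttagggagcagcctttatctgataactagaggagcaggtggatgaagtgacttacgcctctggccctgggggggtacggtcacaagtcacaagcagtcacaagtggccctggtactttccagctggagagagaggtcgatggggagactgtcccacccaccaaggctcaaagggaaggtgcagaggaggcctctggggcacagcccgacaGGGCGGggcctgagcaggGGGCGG
Ncf1: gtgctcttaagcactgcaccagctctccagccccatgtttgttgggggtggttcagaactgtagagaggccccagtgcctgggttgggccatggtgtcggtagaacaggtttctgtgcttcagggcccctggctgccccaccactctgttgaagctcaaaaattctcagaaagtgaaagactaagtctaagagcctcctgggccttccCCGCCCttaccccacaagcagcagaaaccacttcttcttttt
Cat: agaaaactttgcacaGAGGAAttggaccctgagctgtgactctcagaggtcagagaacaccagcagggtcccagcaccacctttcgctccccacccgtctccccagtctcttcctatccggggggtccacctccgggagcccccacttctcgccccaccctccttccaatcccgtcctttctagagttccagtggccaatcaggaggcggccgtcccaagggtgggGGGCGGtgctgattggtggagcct
Of the 9 genes, 7 matched an entry of the RefSeq promoter table by symbol, each with 1 window of 300 bases that also takes in the first 50 bases of the transcript. Ncf4 and Rac2 are named only. In these windows GAGGAA was found once each for Cybb, Sod2 and Cat, and the Cybb match lies in the transcribed 50 bases, outside the stretch shown. Of 32851 promoters of that length, 28.3% hold this motif. TGACNNNGC was found in 1 window, that of Sod1, against 12.4% of all promoters. GGGCGG was found 2 times for Cyba, 4 times each for Sod1 and Sod2, 1 time each for Ncf1, Cat and Gpx1 and not for Cybb, and 35.7% of all promoters hold it. Overlapping matches were counted separately. The G+C share was 35.3% in the window of Cybb, the lowest of the 7, and 66.7% in that of Sod1, the highest. The matches are descriptions of letters and were not tested against the expression values.

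All 5 oxidase genes were lower in ASXL1-MT marrow and catalase was higher. The oxidase genes ranged from 1.65-fold lower for Cyba to 2.11-fold lower for Ncf1, and Cat was 2.09-fold higher. Sod1, Sod2 and Gpx1 did not pass the test. In limma's test over all genes, 4.75% of the 18193 genes were lower and 6.63% higher at a Benjamini-Hochberg adjusted p of 0.05. Among these 9 genes, 5 were lower and 1 higher. The 9 were chosen with earlier results of these data known, so this contrast is a description and not a test. At an unadjusted p under 0.05, 10.9% of all genes were lower and 18.1% higher, and the unadjusted counts of the lists described further on are to be read against these shares. The groups did not overlap in any of these 6 genes, and over all genes 14.4% were lower and 23.5% higher without overlap. Values are log values, taken as base 2, that were centred on each probe set's median over the 6 arrays. A gene is the mean of its probe sets, and changes are given as ASXL1-MT minus mock (group means). Centring removed absolute levels, so levels of different genes cannot be compared, and where groups do not overlap on a probe set the nearest array of each group lies equally far from 0 by construction. In a mixed marrow fraction, fewer cells of a type and less RNA per cell cannot be told apart.

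**Figure D1:**
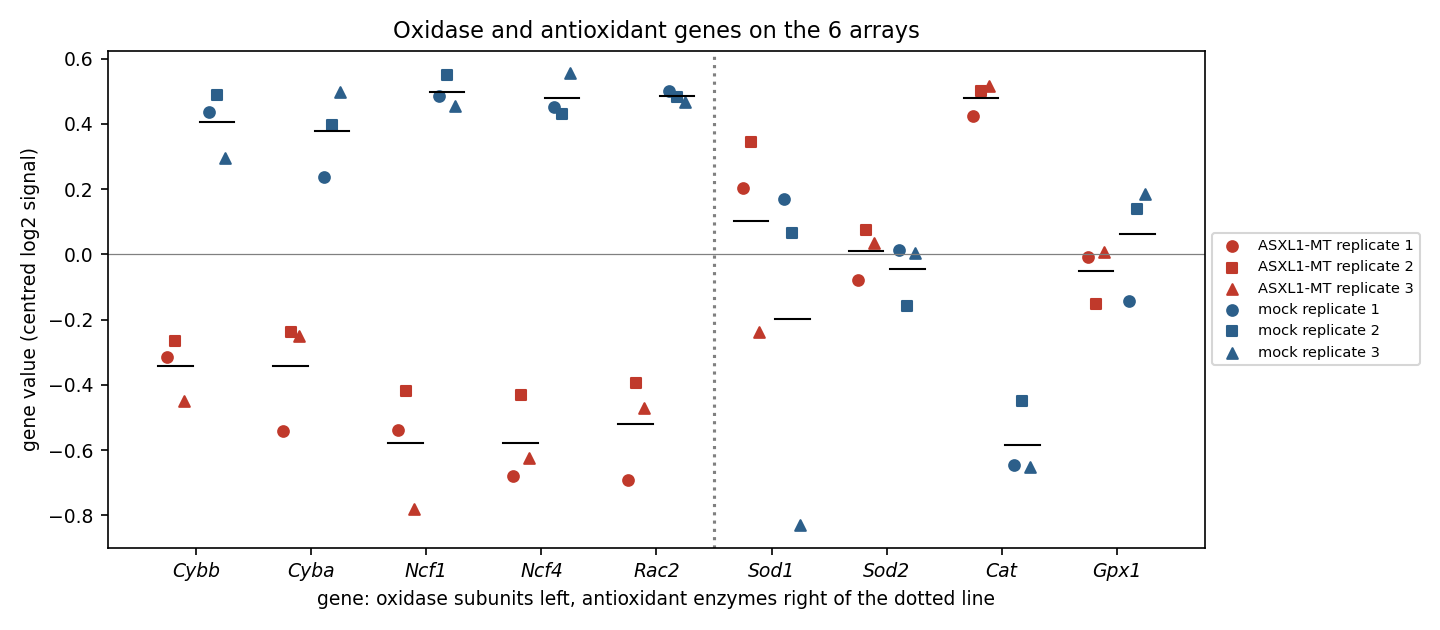
Gene value (centred log2 signal, vertical axis) of the 9 genes on each array, with ASXL1-MT arrays in red, mock arrays in blue, replicates by symbol and group means as black bars (n = 3). The oxidase genes lie below 0 on all ASXL1-MT arrays and above 0 on all mock arrays, Cat is the reverse, and the groups overlap for Sod1, Sod2 and Gpx1.

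Among the subunits of the membrane core, Cybb, the electron-carrying chain, was -0.31, -0.27 and -0.45 on ASXL1-MT replicates 1 to 3 and 0.44, 0.49 and 0.30 on mock replicates 1 to 3. Its change was -0.75 (SE 0.14, 95% interval -1.09 to -0.41, adjusted p = 0.0300 by limma), or 1.68-fold lower. Cyba, the partner chain that stabilises Cybb protein, was -0.54, -0.24 and -0.25 against 0.24, 0.40 and 0.50. Its change was -0.72 (SE 0.16, interval -1.12 to -0.32, adjusted p = 0.0479). Every ASXL1-MT array was below every mock array for both genes, with a gap between the nearest arrays of 0.56 for Cybb and 0.48 for Cyba.

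Ncf1, the organiser that carries the cytosolic subunits to the membrane, was -0.54, -0.42 and -0.78 on ASXL1-MT arrays and 0.49, 0.55 and 0.45 on mock arrays. It changed by -1.08 (SE 0.15, interval -1.46 to -0.70, adjusted p = 0.0181). Ncf4, a cytosolic subunit with a lipid-binding domain, was -0.68, -0.43 and -0.62 against 0.45, 0.43 and 0.55, a change of -1.06 (SE 0.14, interval -1.41 to -0.71, adjusted p = 0.0156). The gaps between the nearest arrays were 0.87 and 0.86, wider than those of both membrane subunits. Rac2, the GTPase of blood cells that completes the complex, was -0.69, -0.39 and -0.47 against 0.50, 0.48 and 0.47. Its change was -1.0 (SE 0.14, interval -1.36 to -0.65, adjusted p = 0.0182). The order of the changes from the largest fall was thus Ncf1, Ncf4, Rac2, Cybb and Cyba. The intervals of all 5 overlap, and differences between the genes were not tested.

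Within the ASXL1-MT group, replicate 2 had the highest value for each of the 5 oxidase genes, and the lowest was replicate 1 for Cyba, Ncf4 and Rac2 and replicate 3 for Cybb and Ncf1. The within-group SD (n = 3) was 0.10 for Cybb, 0.17 for Cyba, 0.18 for Ncf1, 0.13 for Ncf4 and 0.16 for Rac2 in ASXL1-MT. In mock it was 0.10, 0.13, 0.05, 0.07 and 0.02 in the same order, smaller for all but Cybb.

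Catalase was higher in ASXL1-MT, with values of 0.43, 0.50 and 0.52 against -0.65, -0.45 and -0.65 in mock. Its change was 1.06 (SE 0.13, interval 0.73 to 1.40, adjusted p = 0.0148), and the gap between the nearest arrays was 0.88. Sod1, the copper-zinc dismutase, was 0.20, 0.35 and -0.24 against 0.17, 0.07 and -0.83, with overlapping groups and a change of 0.30 (SE 0.33, interval -0.54 to 1.14, adjusted p = 0.609). Sod2, the manganese dismutase, was -0.08, 0.07 and 0.04 against 0.01, -0.16 and 0.01. Its change was 0.06 (SE 0.13, interval -0.28 to 0.39, adjusted p = 0.821), and its sign turned under quantile normalization, cyclic loess and equal array medians. Gpx1, the selenium-dependent peroxidase of the cytosol, was -0.01, -0.15 and 0.01 against -0.14, 0.14 and 0.19, a change of -0.11 (SE 0.15, interval -0.50 to 0.27, adjusted p = 0.686). The intervals of Sod2 and Gpx1 exclude a change as large as that of any of the 6 genes of the set that passed, while that of Sod1 includes the size of the change of Cat.

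The median change of all genes was 0.11 as deposited and 0.01 to 0.03 after quantile normalization, cyclic loess or equal array medians. Relative to the median of all genes, the changes were -0.86 for Cybb, -0.83 for Cyba, -1.18 for Ncf1, -1.17 for Ncf4, -1.11 for Rac2 and 0.95 for Cat. They were 0.19 for Sod1, -0.05 for Sod2 and -0.22 for Gpx1. Ranked among all genes, the oxidase changes lay between the 9.05 percentile (Ncf1) and the 15.4 percentile (Cyba), and that of Cat at the 89.5 percentile.

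Single probe sets gave the same picture for the oxidase. All 10 oxidase probe sets were lower in ASXL1-MT with no overlap between groups, and 7 passed in the fit over all probe sets, where 3.37% were lower. Over all probe sets 13.7% were lower without overlap. Cybb had changes of -0.83 for 1422978_at (adjusted p = 0.0525), -0.59 for 1436778_at (adjusted p = 0.0613) and -0.83 for 1436779_at (adjusted p = 0.0452 by limma). The 1 probe set of Cyba, 1454268_a_at, did not pass at this level (adjusted p = 0.0637). The 3 probe sets of Ncf1 passed and spanned the widest range within an oxidase gene, with -1.40 for 1425609_at, -1.08 for 1451767_at and -0.75 for 1456772_at. The first of these was -0.56, -0.53 and -1.19 on ASXL1-MT arrays, so replicate 3 stood lowest, against 0.67, 0.70 and 0.53 on mock arrays. Rac2 fell on both of its probe sets, with -0.81 for 1417620_at beside -1.19 for 1440208_at, and Ncf4 on its 1, 1418465_at, with -1.06.

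**Figure D2:**
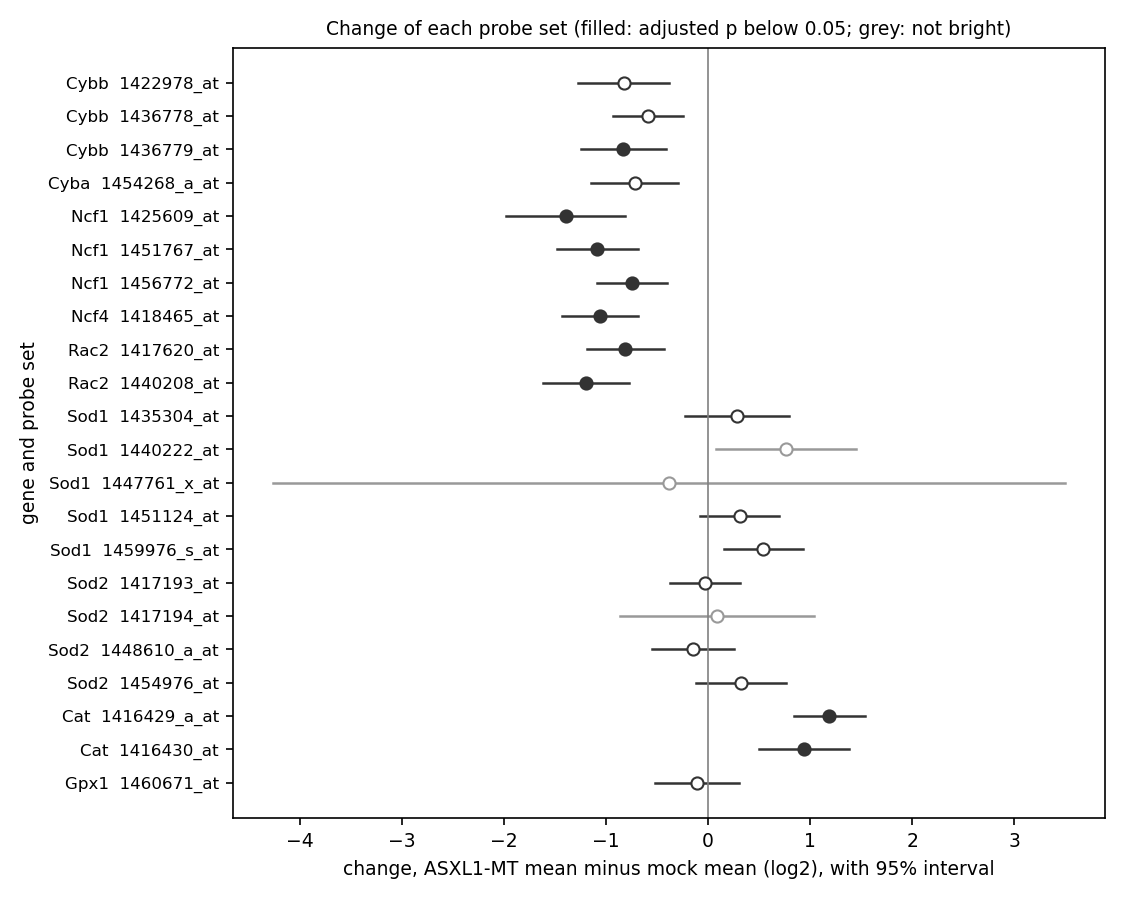
Change of each of the 22 probe sets (ASXL1-MT minus mock, log2, n = 3 arrays a group) with its 95% interval from limma, filled where the adjusted p was below 0.05 and grey where the probe set was not called bright. The 10 oxidase probe sets lie between -1.40 and -0.59, both Cat probe sets near 1, and the interval of Sod1 probe set 1447761_x_at is wider than all others.

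Both Cat probe sets rose, by 1.19 for 1416429_a_at (adjusted p = 0.0185) and by 0.94 for 1416430_at (adjusted p = 0.0400), where 4.73% of all probe sets were higher. The larger was 0.53, 0.64 and 0.59 against -0.53, -0.58 and -0.69. The estimates of the Sod1 probe sets differed in size, and in sign for 1447761_x_at, whose interval was -4.26 to 3.50. The change was 0.54 for 1459976_s_at, 0.31 for 1451124_at, 0.28 for 1435304_at, 0.76 for 1440222_at and -0.38 for 1447761_x_at. None passed in limma's test (adjusted p from 0.0961 to 0.906). For 1459976_s_at, 1451124_at and 1440222_at the groups did not overlap, and over all probe sets 21.7% were higher without overlap. In 1447761_x_at the values were -0.94, 1.46 and -2.14 on ASXL1-MT arrays and 1.55, 0.94 and -2.96 on mock arrays. Its within-group SD of 2.16 lay at the 99.2 percentile of all probe sets. Affymetrix gives the suffix x_at to probe sets that may bind other sequences too. Without this probe set, an omission chosen after its spread was seen, Sod1 was 0.49, 0.07 and 0.24 against -0.18, -0.15 and -0.30. The groups then did not overlap, and the change was 0.47 (interval 0.06 to 0.88, adjusted p = 0.127). Of the 4 probe sets of Sod2, 1454976_at changed by 0.32 without overlap, and the others by -0.03, 0.09 and -0.15 with overlap. Neither this nor the other Sod2 probe sets passed (adjusted p from 0.317 to 0.912).

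Brightness was recovered in part from the rounding of the values. Logs of 8 and above in single precision lie on a step with exponent 20 in binary. A probe set whose 3 highest arrays lie on it was called bright, which for base 2 means a signal of about 256 or more. Where groups do not overlap, these 3 arrays are those of the higher group, mock for the oxidase and ASXL1-MT for Cat. A probe set can thus be called bright through 1 group. All 6 arrays lay on the step for each oxidase and Cat probe set except Rac2 1440208_at, which had 4. All 10 oxidase probe sets, both Cat probe sets and the 1 of Gpx1 were bright, with 3 of 5 for Sod1 and 3 of 4 for Sod2, against 38.2% of all probe sets. The median within-group SD was 0.18 over bright probe sets and 0.81 over the rest. Fitted on bright probe sets alone (9421 genes), the 5 oxidase genes were lower, with adjusted p from 0.00146 for Ncf4 to 0.00742 for Cyba, and Cat was higher (adjusted p = 0.00119). Sod1 was then also higher, by 0.38 (adjusted p = 0.0457). In that fit 16.2% of genes were lower and 27.6% higher. All probe sets of the oxidase genes and Cat were bright, so their changes were those of the fit over all genes. Only their SE was smaller, as for Cybb at 0.10 against 0.14.

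Leaving out arrays ended most calls in the fit over all genes. Among the oxidase genes 3 passed without ASXL1-MT replicate 1, 1 without mock replicate 1 and 0 without each of the other 4 arrays. All 5 had an unadjusted p under 0.05 in each of the 6 fits (limma), as did 9.33% to 10.9% of all genes in the lower direction. Cat passed in 3 of 6 such fits and failed without ASXL1-MT replicate 2, ASXL1-MT replicate 3 and mock replicate 3. The changes themselves moved little, from -0.81 to -0.70 for Cybb, -0.79 to -0.62 for Cyba, -1.16 to -0.98 for Ncf1, -1.13 to -1.01 for Ncf4, -1.07 to -0.92 for Rac2 and 1.03 to 1.13 for Cat. On bright probe sets alone, a setting combined with the omissions after the data were seen, the 5 oxidase genes and Cat passed in all 6 fits (adjusted p from 0.00429 to 0.0276). Sod1 passed in none of these 6 (adjusted p from 0.0512 to 0.114).

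Of 10 other measured genes of the oxidase family 0 passed in limma's test, with 1 higher and 1 lower at an unadjusted p under 0.05. The median change was 0.36. The 2 with the smallest p were Hvcn1, the proton channel that balances the charge the oxidase moves, at -0.56 (adjusted p = 0.0575), and Rac3 at 0.54 (adjusted p = 0.126). Hvcn1 was -0.32, -0.20 and -0.28 against 0.43, 0.20 and 0.26, without overlap. Rac1, the widely expressed relative of Rac2, had a change of -0.44 with overlapping groups (adjusted p = 0.537), and Cybc1, a chaperone of the membrane core, of 0.18 (adjusted p = 0.763).

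Among 13 measured regulators of oxidase assembly 1 fell and 0 rose, with 3 lower and 0 higher at an unadjusted p under 0.05, and the median change was -0.16. The gene that fell was Prkcb, a protein kinase C that phosphorylates p47phox. It was -0.43, -0.44 and -0.72 against 0.55, 0.34 and 0.36, a change of -0.95 (SE 0.16, adjusted p = 0.0243). Over the 6 omissions of an array Prkcb passed 0 times, with changes from -1.0 to -0.85, and on bright probe sets alone it passed in 6 of 6. Of 3 heme peroxidases, which use hydrogen peroxide, 0 passed in limma's test, also at an unadjusted p under 0.05. The 2 with the smallest p were Epx at -1.66 (adjusted p = 0.324) and myeloperoxidase (Mpo) at -0.18 (adjusted p = 0.509). Epx was 0.21, -0.21 and -0.86 against -0.76, 2.61 and 2.26, with overlapping groups.

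The genes that supply reducing power were measured beside the 4 antioxidant enzymes. Of 14 genes of glutathione synthesis, NADPH supply and the NRF2 pathway, 4 fell and 0 rose, with 4 lower and 1 higher at an unadjusted p under 0.05, and the median change was -0.08. Pgd, which makes NADPH in the pentose phosphate pathway, was -0.67, -0.35 and -0.48 against 0.44, 0.39 and 0.39, a change of -0.91 (adjusted p = 0.0227). Gsr, glutathione reductase, which consumes NADPH, changed by -0.85 (adjusted p = 0.0341). Nfe2l2, which encodes the transcription factor NRF2, was -0.44, -1.66 and -1.59 against 0.78, 0.75 and 0.64, a change of -1.95 (SE 0.36, adjusted p = 0.0315) in which ASXL1-MT replicate 1 fell least. Slc7a11, the cystine importer, changed by -3.32 (SE 0.43, adjusted p = 0.0155). No probe set of Slc7a11 was bright, and its levels relative to background cannot be read from these values. Over those omissions Pgd and Gsr passed 0 times, Nfe2l2 1 time and Slc7a11 3 times, and on bright probe sets alone Pgd, Gsr and Nfe2l2 passed in 6 of 6.

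Of 14 peroxiredoxin, thioredoxin and glutaredoxin genes, 1 rose and 1 fell. At an unadjusted p under 0.05 there were 5 higher and 3 lower, and the median change was 0.32. Prdx2, a peroxide-reducing enzyme abundant in red cells, was 1.09, 0.56 and 0.50 against -0.54, -0.56 and -0.59, a change of 1.28 (SE 0.20, adjusted p = 0.0219), highest on ASXL1-MT replicate 1. Glrx, the cytosolic glutaredoxin, was -0.75, -0.55 and -0.61 against 0.68, 0.55 and 0.78, a change of -1.31 (SE 0.14, adjusted p = 0.0119). Over the omissions Glrx passed 5 times and Prdx2 1 time, and on bright probe sets alone both passed in 6 of 6. Of the 9 other dismutase and glutathione peroxidase genes 0 passed in limma's test, also at an unadjusted p under 0.05. The 2 with the smallest p were Gpx2 at 0.68 (adjusted p = 0.233) and Gpx4, the peroxidase of membrane lipids, at -0.29 (adjusted p = 0.246).

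**Figure D3:**
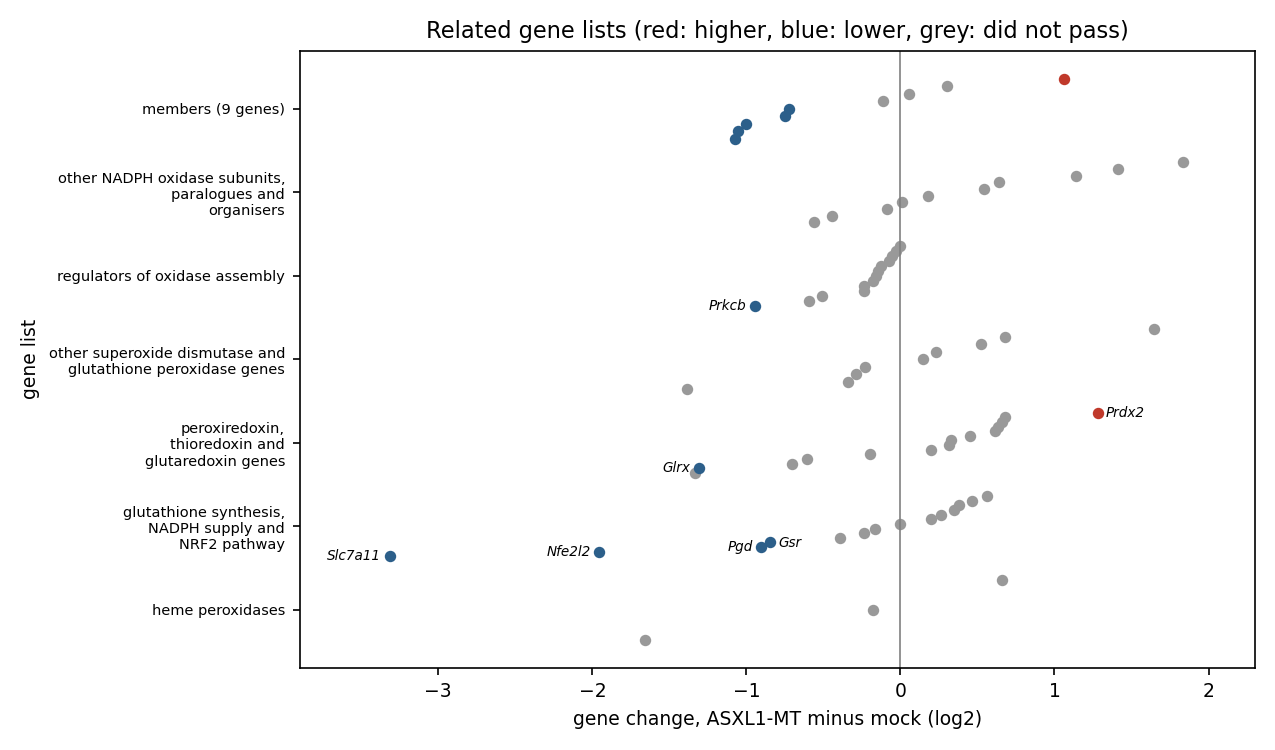
Change of each measured gene (ASXL1-MT minus mock, log2) in the 9 genes described here and in 6 lists of related genes, red where higher, blue where lower and grey where the gene did not pass limma's test. In the related lists 6 genes were lower and Prdx2 alone was higher.

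Markers of several cell types moved beside these genes, and their part in the results was not tested. Of 8 neutrophil markers 3 fell and 0 rose (4 lower and 0 higher at an unadjusted p under 0.05, against 10.9% and 18.1% of all genes). Their mean was -0.52, -0.27 and -0.38 on ASXL1-MT arrays and 0.21, 0.39 and 0.42 on mock arrays. Those that fell were Mmp9 at -1.87, Cxcr2 at -1.65 and Mmp8 at -1.22, and the other 5 ran from -0.45 for Ltf (adjusted p = 0.130) to 0.00 for S100a9 (adjusted p = 0.999). Of 8 monocyte and macrophage markers 1 fell, Vcam1 at -4.33 (adjusted p = 0.00803), and 0 rose, with 2 lower and 0 higher at an unadjusted p under 0.05. The other of these was Cd14, a receptor of bacterial lipopolysaccharide, at -3.64 without overlap (adjusted p = 0.0567), and Csf1r, the growth factor receptor that defines this lineage, had a change of -0.01 (adjusted p = 0.973). The list's mean lay between -0.56 and -0.47 on ASXL1-MT arrays and between -0.48 and 0.42 on mock arrays. Mock replicate 1 was the lowest of its group, and there C1qa, which had no bright probe set, was -5.48. C1qa was 0.04 and -0.04 on mock replicates 2 and 3, so the low mean leaned on this gene.

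Red cells are rich in catalase, Sod1, Gpx1 and Prdx2, and markers of that lineage are given beside these genes. Of 7 red cell markers 1 rose, Alas2, and 0 fell, and 5 were higher and 0 lower at an unadjusted p under 0.05, where 18.1% of all genes were higher. The mean of the 7 markers was 1.77, 0.78 and 0.41 on ASXL1-MT arrays and -0.96, -1.16 and -0.53 on mock arrays. These means did not overlap and were highest on ASXL1-MT replicate 1. On that array Slc4a1 was 2.98 and Hba-a1 was -0.33, both without a bright probe set, and the groups overlapped for Hba-a1. Within ASXL1-MT, Prdx2 was highest on replicate 1, and Cat was highest on replicate 3 and lowest on replicate 1. Sod1 was highest on ASXL1-MT replicate 2, or on replicate 1 without probe set 1447761_x_at, and Gpx1 on replicate 3. Cat ran only from 0.43 to 0.52 within the group, and these orders were not tested. Of 10 dendritic cell markers 7 rose and 0 fell, with means from 0.81 to 0.94 against -1.90 to -0.72. Megakaryocyte markers fell in 5 of 9 cases, those of eosinophils, basophils and mast cells in 3 of 8, and stem and progenitor markers rose in 3 of 8 and fell in 1. B cell markers rose in 3 of 7 cases, and T and NK cell markers rose in 2 and fell in 1 of 7. Depletion of red cell precursors, B cells and T cells is described for both groups but labelled for mock alone. In markers of these lineages, a difference in depletion and one between the groups cannot be told apart. Over all genes 4.75% fell and 6.63% rose. At an unadjusted p under 0.05, 7 megakaryocyte markers and 5 of eosinophils, basophils and mast cells were lower, and 0 of either were higher. Stem and progenitor markers were then 3 higher and 3 lower, and T and NK cell markers 2 higher and 2 lower. Dendritic cell markers were 7 higher and B cell markers 3 higher, with 0 lower. The shares of all genes at that level were 10.9% lower and 18.1% higher. Of the 18193 genes, 9421 had a bright probe set. Among the markers, these were 7 of 8 for neutrophils, 7 of 8 for monocytes and 7 of 10 for dendritic cells. They were 6 of 8 for eosinophils, basophils and mast cells, 4 of 8 for stem and progenitor cells and 3 of 9 for megakaryocytes. For red cells they were 3 of 7, for B cells 2 of 7 and for T and NK cells 3 of 7. Whether a marker was at background cannot be read from centred values.

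**Figure D4:**
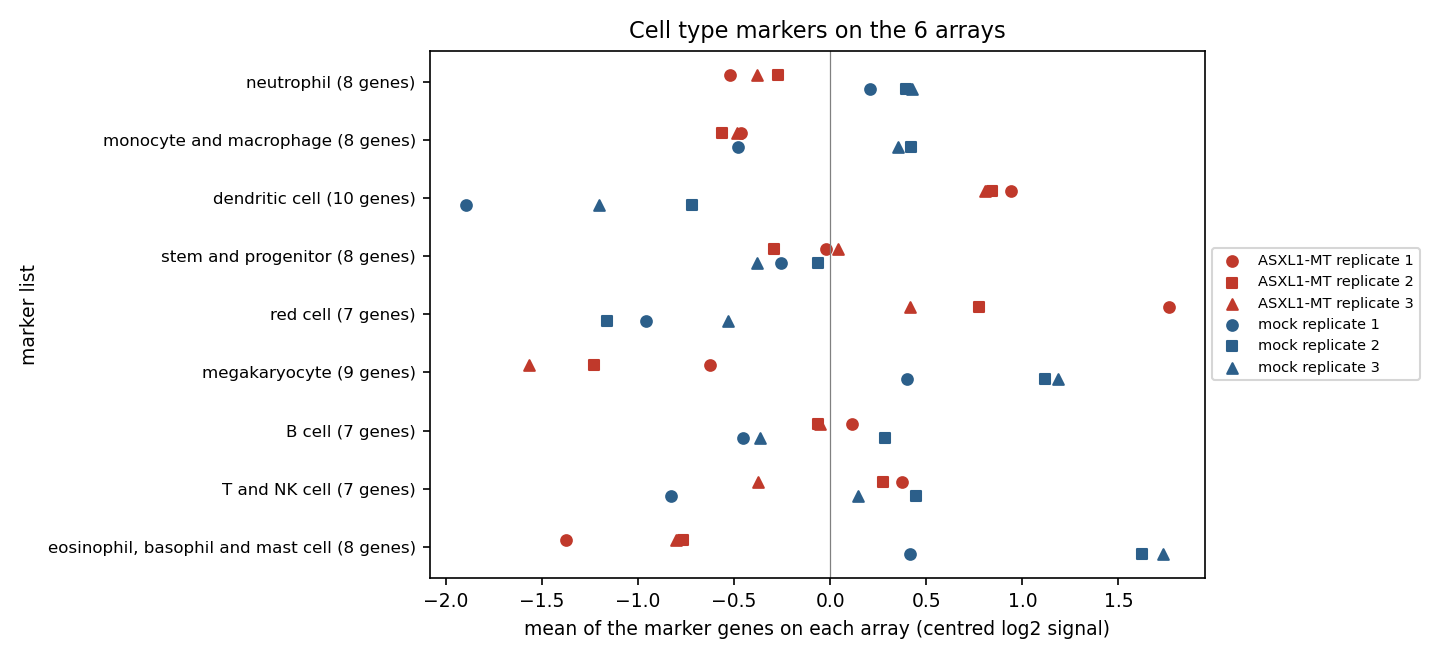
Mean of the measured marker genes of 9 cell type lists on each array (centred log2 signal), ASXL1-MT arrays in red and mock arrays in blue. Neutrophil markers lie at -0.52 to -0.27 in ASXL1-MT and 0.21 to 0.42 in mock, and red cell markers at 0.41 to 1.77 and -1.16 to -0.53.

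The genes whose 6 values lay closest to those of each oxidase and antioxidant gene were found by Euclidean distance over the 6 arrays, among genes outside the set. Rac2 was nearest to Pde2a (distance 0.09), Nadk (0.14), the kinase that makes NADP, and Pgd (0.15), the NADPH source named above. Nearest to Cybb was Ndufv3 (0.12), to Cyba Ms4a3 (0.11), to Ncf1 Ckap4 (0.13) and to Ncf4 Agpat2 (0.12). Cat lay nearest to Rfx5 (0.05), a factor of MHC class II promoters. Gpx1 was nearest to the ribosomal protein gene Rps28 (0.11), and Sod2 to the proteasome gene Psmd6 (0.06). The closest gene to Sod1 was 4931414P19Rik at 0.30, the farthest nearest gene among the 9. These distances describe 6 arrays that share the same 2 groups and carry no test.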

How the data were processed

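The submitters' processing notes name MAS5 as the source of the signals, and the design text names Affymetrix MAS version 5.0. The deposited values are log values, taken as log2. Row medians were 0 to within 5e-07, so each probe set had been centred on its median over the 6 arrays. Log base, centring and any floor are not given in the sources used here and were read from the values. Depth does not apply to arrays, and their number limits the precision. Array medians ran from -0.05 to 0.05.

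Groups and replicate numbers came from sample titles. Limma 3.58.1 (R 4.3.3) was fitted over all 45037 probe sets, and over 18193 genes averaged from the 34945 probe sets with 1 symbol, with group as the only term, no trend and Benjamini-Hochberg adjustment. The script was tested on simulated data. Symbols came from the platform annotation, updated by gene ID through RefSeq (assembly GRCm38.p6; 34741 matched). The genes and lists were chosen with earlier results of these data known. Every gene of the set and its probe sets was named. Each related list gave up to 4 genes that passed, or the 2 of smallest p, and for the set's genes the nearest were found. Other names were added after their values were seen (Rac1, Cybc1, Mmp9, Cxcr2, Mmp8, Ltf, S100a9, Vcam1, Cd14, Csf1r, C1qa, Alas2, Slc4a1, Hba-a1). Same-numbered arrays of the 2 groups had deviations that correlated at -0.01, and the numbers were not taken as pairs. These correlations ran over all probe sets, with a median SD of 0.81 where not bright and 0.18 where bright. They weigh the noisier probe sets most and could miss a batch shared by bright ones.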

Additional observations from a re-analysis of the deposited data

How the results depend on the processing

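The direction of the 5 oxidase genes and of Cat held under every alternative run, and all 6 passed under each normalization, both trend settings, bright probe sets alone and the least variable probe set per gene. Over all genes 2072 passed, 4128 on bright probe sets alone, 3898 with the least variable probe set, 192 to 1033 after omitting an array and 2670 to 3655 after doing so on bright probe sets. Over all probe sets 3646 passed, 6778 on bright ones, 5816 with trend and robust settings and 66 to 1142 after omitting an array. Among the 9 genes 2 were higher, Sod1 and Cat, on bright probe sets alone and with the least variable probe set. After omitting an array, from 0 to 3 were lower and from 0 to 1 higher, and on bright probe sets 5 were lower and 1 higher in each fit. Of the 22 probe sets, 1 was higher after cyclic loess, and after omitting an array 0 were lower and from 0 to 1 higher, where 10 were lower in each fit at an unadjusted p under 0.05, as were 8.3% to 10.2% of all probe sets.

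With the replicate number as a block, 0 genes, 0 probe sets and 0 of the 9 genes passed in limma, and at an unadjusted p under 0.05 there were 1814 lower and 2754 higher genes, among them the 5 oxidase genes and Cat. The adjusted p of these 6 lay between 0.104 and 0.124. The arrays share only a number, and the check of the numbers gave correlations of -0.01 for each.

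Sod2, at 0.057 in the reported fit, turned to -0.0324 after quantile normalization, -0.0508 after cyclic loess, -0.0244 with equal array medians, -0.0318 with its least variable probe set and -0.00232 as the median of its probe sets. It ran from -0.00741 to 0.101 after omitting an array, the lowest value coming on bright probe sets without mock replicate 3. Sod1 ran from -0.014 without mock replicate 3 to 0.486 without mock replicate 1. Its probe set 1447761_x_at was -2.96 on mock replicate 3 and 1.55 on mock replicate 1. The gene value of Sod1 on mock replicate 3 was -0.83, and -0.30 without that probe set. The cause was not tested. Settings that need absolute levels (background correction, an offset, a floor) could not be run on centred values, and the slide is not given in the sources used here.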
